A study of Mus musculus with 36 samples.

Results

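The 211 open-chromatin regions described here gained accessibility in mouse cortical neurons within 1 h of BDNF, still held part of that gain at 10 h, and were not raised past a set limit at 1, 6 or 10 h of KCl. They were found among 58177 regions counted by ATAC-seq, of which 40667 had a mean count of at least 20 over the 18 ATAC libraries and are called the kept peaks. The members were chosen by their measured accessibility. Counts were turned into CPM (counts of a region per 1e6 reads in all regions of that library), and the centred log2 level of a group was log2 of its mean CPM + 0.5 over the mean CPM + 0.5 of the 6 controls, minus the median of that value over the kept peaks. A member had a level of at least 1 at BDNF 1 h, at least 0.7 at BDNF 10 h, and below 0.5 at all 3 KCl times.

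BDNF, brain-derived neurotrophic factor, is a secreted neurotrophin that binds the receptor tyrosine kinase TrkB, encoded by Ntrk2, and signals through the Ras-ERK, PI3K and phospholipase C pathways. A raised KCl concentration depolarises neurons and lets calcium in through voltage-gated channels, so both stimuli drive activity-dependent transcription by partly shared routes. ATAC-seq reads out where a transposase can reach the DNA, and regions that open after a stimulus often hold sites for AP-1, the dimer of Fos and Jun proteins made soon after stimulation. Enhancers of neurons lie mostly in introns and between genes, which is why each member is given below with its nearest gene, without any claim that it acts on that gene.

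The cells were primary cortical neurons from embryonic day 15 CD-1 mice, pooled over embryos and kept for 7 days in vitro. Activity was blocked in all groups, the controls included, over 2 h by the NMDA receptor blocker AP-5 (100 µM) together with the sodium channel blocker TTX (1 µM). Stimulated cultures then received BDNF at 10 ng/ml or KCl at 55 mM for 1, 6 or 10 h, and control cultures stayed in the blockers for 3, 8 or 12 h in all. Each of these 9 groups had 2 ATAC and 2 RNA samples, so an assay had 18 samples and 6 controls. The study calls the samples of a group biological replicates, but the labels do not tie them to separate cultures, so p-values measure the spread between these samples, which may be technical.

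Depth set the precision of single regions. The ATAC libraries held 1.24 to 6.24 M reads in peaks (median 3.55 M), with KCl 6 h column B the shallowest, and the RNA libraries 8.51 to 36.7 M (median 11.6 M). The members were shallow regions, with a median mean count of 30.7 (range 20.2 to 252). Neuronal markers were abundant in every RNA library (5 of 5 listed genes, summed level 39659 to 50967), while markers of astrocytes (8596 to 16139, 5 of 5), oligodendrocyte lineage (4280 to 7191, 5 of 5) and progenitors (5207 to 9154, 5 of 5) were also present. Microglial (54.9 to 102) and endothelial (10.2 to 29.3) sums were low, and 1 of 3 endothelial markers had a median of 0. In these bulk samples fewer cells of a type and less RNA or open chromatin per cell cannot be told apart.

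Windows of 9 members are printed first, because the results below turn on them. Each is the plus strand of GRCm38 (mm10), 300 bases around the middle of the peak, read from the RefSeq assembly. The first 4 hold an AP-1 site, the letters TGACTCA on either strand, and the capitals mark it. Peaks 1 and 2 stand first and second among the 211 when members are ranked by the smaller of their BDNF 1 h and 10 h levels, and the other two lie near Sh2d5 and Spred2, genes whose RNA was higher at all 3 BDNF times.
peak 1 (Dnase1l3 intron), chr14:7975164-7975463: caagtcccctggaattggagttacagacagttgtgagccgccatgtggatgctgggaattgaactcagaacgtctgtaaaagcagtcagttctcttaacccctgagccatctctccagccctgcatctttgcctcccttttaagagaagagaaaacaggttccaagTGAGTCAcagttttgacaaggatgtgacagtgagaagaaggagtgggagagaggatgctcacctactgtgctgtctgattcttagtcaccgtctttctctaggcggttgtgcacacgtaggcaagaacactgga
peak 2 (St7 intron), chr6:17764082-17764381: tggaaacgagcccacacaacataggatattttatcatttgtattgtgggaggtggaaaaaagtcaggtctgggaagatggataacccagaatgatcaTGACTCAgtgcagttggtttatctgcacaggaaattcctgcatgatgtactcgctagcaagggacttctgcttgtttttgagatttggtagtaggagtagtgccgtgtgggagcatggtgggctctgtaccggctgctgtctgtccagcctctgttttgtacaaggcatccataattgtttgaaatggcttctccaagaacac
peak 191 (upstream of Sh2d5), chr4:138247287-138247586: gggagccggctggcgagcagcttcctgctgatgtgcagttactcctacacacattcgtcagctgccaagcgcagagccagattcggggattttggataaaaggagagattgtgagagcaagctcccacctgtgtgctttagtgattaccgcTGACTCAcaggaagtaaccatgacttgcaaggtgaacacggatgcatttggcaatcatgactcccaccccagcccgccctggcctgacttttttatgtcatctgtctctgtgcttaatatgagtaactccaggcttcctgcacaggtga
peak 75 (upstream of Spred2), chr11:19835384-19835683: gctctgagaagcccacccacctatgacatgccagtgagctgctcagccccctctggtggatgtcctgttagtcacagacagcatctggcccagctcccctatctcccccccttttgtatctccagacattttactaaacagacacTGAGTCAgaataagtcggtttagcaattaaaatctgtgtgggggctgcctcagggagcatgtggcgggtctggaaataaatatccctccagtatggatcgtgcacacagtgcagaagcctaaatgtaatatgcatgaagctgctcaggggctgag

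The other 5 windows hold no AP-1 letters, and here the capitals mark every match to the other motifs that are spelled out in letters further on. Peak 5 carried an RFX, a short MAF and 2 short NFI matches, peak 6 a STAT match and, not in capitals, a CArG box, peak 54 an ETS, a POU and 2 C/EBP matches, and peak 23 a RUNX and an E-box match. The window of peak 38 stops at the annotated start of Serpinb2, which leaves 203 bases with 1 C/EBP match. A match is a run of letters and says nothing of binding in these cells.
peak 5 (Stau2 intron), chr1:16258317-16258616: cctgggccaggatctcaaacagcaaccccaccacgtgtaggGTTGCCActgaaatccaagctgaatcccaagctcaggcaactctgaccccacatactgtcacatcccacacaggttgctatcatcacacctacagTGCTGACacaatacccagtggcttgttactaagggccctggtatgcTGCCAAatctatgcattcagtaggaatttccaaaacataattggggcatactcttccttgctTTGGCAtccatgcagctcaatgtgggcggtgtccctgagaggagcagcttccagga
peak 6 (Tspan9 intron), chr6:128021452-128021751: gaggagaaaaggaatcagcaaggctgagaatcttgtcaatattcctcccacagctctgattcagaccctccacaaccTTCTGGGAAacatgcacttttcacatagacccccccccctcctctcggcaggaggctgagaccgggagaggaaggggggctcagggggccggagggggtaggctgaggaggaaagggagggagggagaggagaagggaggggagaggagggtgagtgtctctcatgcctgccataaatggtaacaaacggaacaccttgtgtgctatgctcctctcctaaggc
peak 54 (downstream of Rasl11a), chr5:146861680-146861979: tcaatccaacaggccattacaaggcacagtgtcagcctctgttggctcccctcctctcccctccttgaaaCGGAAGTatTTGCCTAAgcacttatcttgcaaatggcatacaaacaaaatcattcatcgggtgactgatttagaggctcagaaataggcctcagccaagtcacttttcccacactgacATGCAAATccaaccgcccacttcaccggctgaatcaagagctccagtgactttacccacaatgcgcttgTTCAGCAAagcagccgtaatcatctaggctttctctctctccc
peak 23 (upstream of Dusp6), chr10:99242110-99242409: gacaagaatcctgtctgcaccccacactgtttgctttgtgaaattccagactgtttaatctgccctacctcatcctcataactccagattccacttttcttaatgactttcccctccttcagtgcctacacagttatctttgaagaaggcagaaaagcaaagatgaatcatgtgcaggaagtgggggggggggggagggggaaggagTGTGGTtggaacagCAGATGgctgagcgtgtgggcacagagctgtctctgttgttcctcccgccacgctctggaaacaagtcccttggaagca
peak 38 (Serpinb2 promoter), chr1:107511220-107511422: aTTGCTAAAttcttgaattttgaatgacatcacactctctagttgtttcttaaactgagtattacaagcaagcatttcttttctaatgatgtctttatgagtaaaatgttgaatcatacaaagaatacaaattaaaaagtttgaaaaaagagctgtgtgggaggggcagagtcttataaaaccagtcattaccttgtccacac

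The accessibility of the members was higher in both BDNF libraries of every time than in the controls, and with KCl the median member was near the control level. The median member CPM was 17.5 and 18.1 in the 2 BDNF 1 h libraries, 13.1 and 12.5 after 6 h, and 13.3 and 12.6 after 10 h. In the 6 controls it ranged from 5.58 to 6.59, and in the 6 KCl libraries from 4.83 to 6.70. On the centred log2 scale the group medians were 1.48 at BDNF 1 h (range over members 1.00 to 3.07), 1.10 at 6 h (0.22 to 2.68) and 1.05 at 10 h (0.71 to 2.39). With KCl they were 0.02 at 1 h (-1.01 to 0.50), -0.01 at 6 h (-1.33 to 0.49) and 0.16 at 10 h (-1.96 to 0.50), since the rule set an upper and no lower limit there. Of these groups, only BDNF 6 h had no limit on its level in the rule, though its counts entered the mean count filter.

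**Figure D1:**
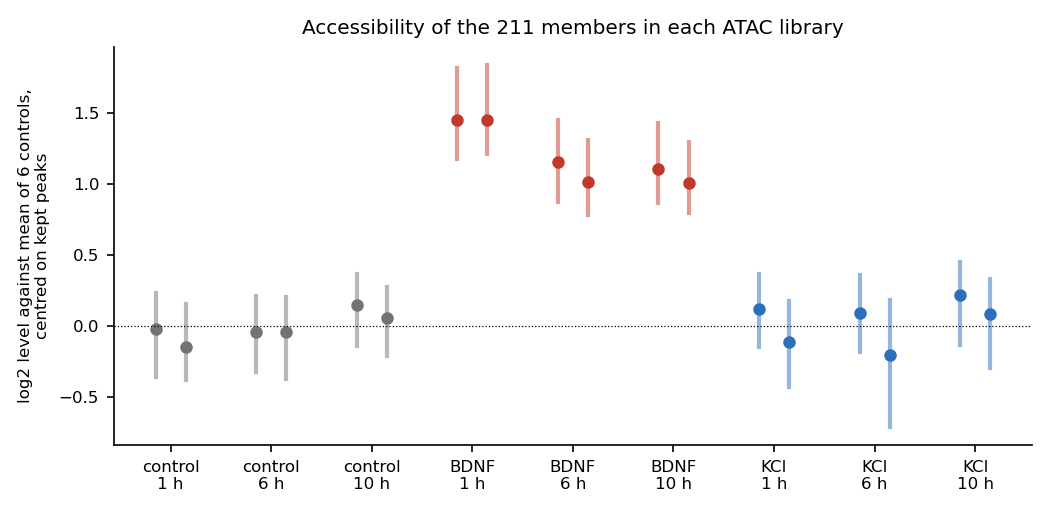
Centred log2 level of the 211 members (y axis, no unit) in each ATAC library, 2 per group (x axis), with the median as a point and the quartiles as a bar, in grey for controls, red for BDNF and blue for KCl. The 6 BDNF medians lie between 1.00 and 1.45, above the 12 control and KCl medians, which lie between -0.21 and 0.22. The levels of all groups but BDNF 6 h were used to choose the regions, and BDNF 6 h entered only through the mean count filter.

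Most members were highest at 1 h. In 89 members the level fell from 1 h to 6 h and again from 6 h to 10 h, whereas 26 members were higher at 10 h than at 1 h and 21 were higher at 6 h than at 1 h. A level of at least 4-fold was met by 37 members at BDNF 1 h, and at least 2-fold by 132 at 6 h and 114 at 10 h. The share of the 1 h rise over controls, on the linear scale, that was still present at 10 h had a median of 59.9%. The rule itself required 10 h levels, so these counts describe the set.

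Both BDNF columns exceeded all 6 controls in 207 members at 1 h and 180 at 10 h, beside 12.5% and 10.2% of kept peaks, counts that the selection fixed in large part. For KCl the numbers were 6, 8 and 11 members at 1, 6 and 10 h, beside 12.7%, 11.3% and 12.9% of kept peaks, again as a consequence of the rule. At BDNF 6 h both columns lay above all 6 controls in 184 members, beside 9.36% of kept peaks.

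Regions close to the thresholds show how thin the borders of the set are. The lowest member at BDNF 1 h, near Celf2, stood at 1.00, followed by regions near 2700062C07Rik at 1.01 and Polr3e at 1.01. Just outside, 458 regions met every other criterion, led by regions near Ceacam15 (0.996), Gja5 (0.989) and Cachd1 (0.988). At BDNF 10 h the lowest members lay near Lzts1 (0.705), Celf2 (0.706) and Cldn23 (0.706), and the nearest of 221 regions outside lay near Nrg1 (0.6997), Car8 (0.699) and Kctd6 (0.696). The members with the highest KCl level lay near 4930432M17Rik (0.4996), Klf10 (0.499) and Pcmtd1 (0.494), and 2088 regions were left out by this limit alone, the nearest by Npffr2 (0.5007), Deptor (0.5007) and Zfp706 (0.501). No test was made on these values.

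BDNF 6 h was the one stimulated ATAC group on whose level the rule set no limit. Its counts entered the mean count filter, and its 6 controls were those of the rule. By edgeR's quasi-likelihood test with Benjamini-Hochberg adjustment over 56383 tested regions, 162 of the 211 members were gained at an adjusted p below 0.1 (76.8%), beside 8.82% of all regions tested and 6.86% of kept peaks. None was lost, and the fold change was positive in all 211 members at this time. The median log2 fold change was 1.10 (quartiles 0.80 to 1.39, range 0.11 to 2.76), against -0.03 over all kept peaks. Without BDNF 6 h column A the number gained was 102.

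These 6 controls also entered the choice of members, so the comparison was repeated with other sets of controls. Against the 2 controls of 6 h alone, 120 of the 211 members were gained, beside 5.38% of kept peaks. The members were then chosen again with levels taken over the 4 controls of 1 h and 10 h only. By this choice 205 regions met the rule, 167 of them shared with the 211. The mean count filter was still taken over all ATAC libraries, those of BDNF 6 h and the 6 h controls included. The choice and the test were thus not fully separate. Of those 205, 118 (57.6%) were gained at BDNF 6 h against the 6 h controls and 202 had a positive fold change, with a median of 1.18 (kept peaks -0.02).

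Regions with other time courses are set beside the members at 6 h. Of 89 regions opened by BDNF at 1 h but back below a level of 0.3 at 10 h and flat with KCl, 10 were gained at BDNF 6 h (11.2%, median log2 fold change 0.38). Of 652 regions opened by BDNF at 1 h and by KCl only late, 520 were gained (79.8%, 1.49), and of 557 regions opened by both stimuli at 1 h, 487 were gained (87.4%, 1.94). The 211 members thus resembled the sets shared with KCl in the share gained at 6 h and lay between these and the transient set in the size of the change. These sets were chosen with other limits from the same columns, and their difference was not tested.

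**Figure D2:**
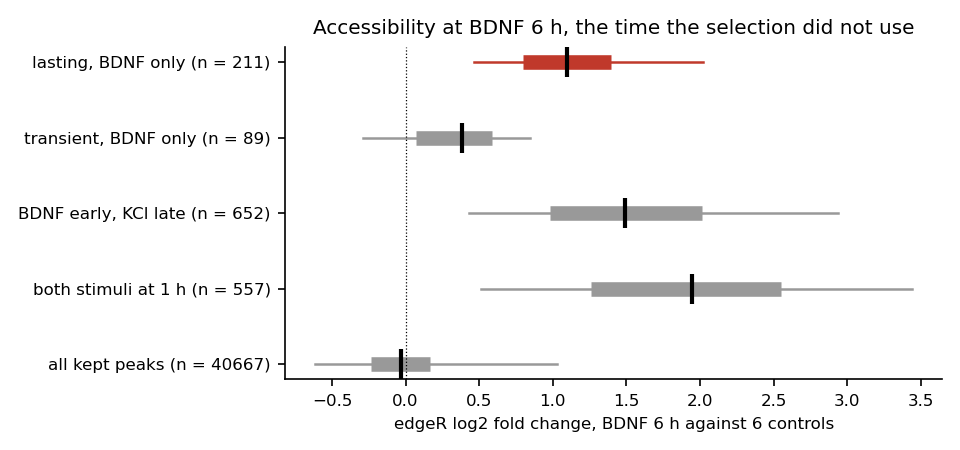
Log2 fold change of accessibility at BDNF 6 h against the 6 controls by edgeR (x axis) for the 211 members, 3 other sets of regions and all 40667 kept peaks (y axis), with the median as a tick, the quartiles as a thick bar and the 5th to 95th percentile as a line. The members' median of 1.10 lies above that of the transient set (0.38) and of the kept peaks (-0.03) and below that of regions opened by both stimuli at 1 h (1.94).

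Longer time in the blockers was compared in the controls alone. Between controls of 6 h and of 1 h, 0 members were called by edgeR at an adjusted p below 0.1, beside 0.0% of all tested regions, and 17 had an unadjusted p below 0.05, beside 4.61%. Between controls of 10 h and of 1 h, 0 members were called (0.0372% of all tested regions) and 21 had an unadjusted p below 0.05, beside 8.17%, 19 of them higher at 10 h. The median log2 difference of the members was 0.06 and 0.18 in these comparisons, beside 0.005 and 0.016 over kept peaks. Of 3545 kept peaks with an unadjusted p below 0.05 between 10 h and 1 h, 1880 were higher at 10 h. How far such shifts enter the BDNF values was not tested.

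The strongest member, peak 1 (chr14:7975056-7975571), lay in an intron of Dnase1l3, which encodes a secreted DNase, 18 kb downstream of the start of Gm45521. Its CPM was 18.3 and 19.5 after 1 h of BDNF, 23.1 and 14.1 after 6 h, and 15.3 and 15.5 after 10 h. With KCl the values were 2.53 and 3.37 after 1 h, 3.8 and 1.61 after 6 h, and 4.02 and 1.56 after 10 h, and the controls ran from 1.65 to 3.99 (median 2.44). All 6 BDNF values thus lay above all controls, and the KCl values overlapped them except for 4.02, just above the highest control, and 1.56 and 1.61, just below the lowest. At BDNF 6 h the log2 fold change was 2.76 (SE 0.32, edgeR adjusted p 6.94e-12).

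Peak 2 (chr6:17763981-17764481) lay in an intron of St7 and peak 5 (chr1:16258249-16258684) in an intron of Stau2, whose product carries RNA into dendrites. Peak 2 had 11.0 and 23.0 CPM after 1 h of BDNF, 12.0 and 11.5 after 6 h, and 10.9 and 10.8 after 10 h, against 0.861 to 2.56 in controls (median 1.61) and 0.805 to 2.61 with KCl. Peak 5 had 21.2 and 26.5 CPM after 1 h of BDNF, 18.6 and 13.7 after 6 h, and 11.4 and 10.1 after 10 h, against 0.472 to 3.99 in controls (median 2.86) and 0.311 to 3.01 with KCl. In neither did a BDNF library overlap a control. The fold changes at 6 h were 2.68 (SE 0.39, edgeR adjusted p 1.29e-08) and 2.65 (SE 0.35, edgeR adjusted p 7.73e-10).

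Of the remaining top members, 6 lay in introns, in Tub (peak 3), Pcmtd1 (peak 4), Tspan9 (peak 6), Wdr1 (peak 8), Rgs7 (peak 9) and Nav2 (peak 10), and peak 7 lay between genes 10.0 kb from Mplkip. Peak 3 (chr7:108968124-108968576) had the highest CPM of the 10 at BDNF 1 h, at 39.0 and 48.2 CPM against 3.32 to 10.6 in controls (median 7.25), and still stood at 36.1 and 27.7 at 10 h. Peak 10 (chr7:49490772-49491250) held its level best, with 30.3 and 29.5 CPM after 1 h, 25.3 and 25.7 after 6 h, and 29.7 and 32.0 after 10 h against 6.32 to 12.8 in controls (median 8.08). By contrast, peak 7 (chr13:17705163-17705716) stood at 18 and 21 CPM after 1 h, 12.8 and 7.38 after 6 h, and 16.8 and 13.0 after 10 h, against 2.66 to 5.19 in controls (median 3.67). All 7 were gained at 6 h by edgeR with log2 fold changes of 1.37 to 2.39, but the calls of peaks 7 and 9 were lost without BDNF 6 h column A (0.95, adjusted p = 0.338, and 0.92, adjusted p = 0.474).

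The members lay away from gene starts. Of the 211, 17 were in promoters (within 1000 bp upstream to 100 bp downstream of an annotated start, 8.06% against 34.9% of kept peaks), 7 in exons, 98 in introns (46.4% against 29.3%) and 89 between genes (42.2% against 31.2%). The median distance to the nearest protein-coding start was 54.7 kb, against 19.6 kb for kept peaks. Outside promoters the gap was narrower, 59.4 against 53.8 kb, and the share in introns was 50.5% against 45.1%. They were narrower than kept peaks (median width 409 against 476 bp) and less open in controls (median 5.72 against 11.3 CPM). How far the selection itself sets these medians was not tested.

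Base composition outside promoters was like that of other regions, with a median GC content of 47.0% against 46.7% and 4 CpG dinucleotides per 300 bases in both. Members were spread over 20 chromosomes with the most, 23, on chromosome 1. In 5 places neighbouring members stood within 100 kb of each other. The closest pair, peaks 8 and 137, lay 6.51 kb apart in Wdr1, followed by pairs at Add2 (27.7 kb) and Dagla (35.1 kb), one near Nmt2 and Fam171a1 (45.8 kb) and one near Scgb1a1 and Ahnak (82.3 kb). A total of 104 members lay inside a protein-coding gene, 80 of them inside the gene whose start was nearest.

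Among the motifs searched, the AP-1 letters showed the widest gap to other regions. Within 300 bases of the middle of the peak, 79 members (37.4%) held TGACTCA on either strand, against 8.79% of kept peaks, and outside promoters 38.1% against 12.0%. The share was 20.2% in the transient BDNF set, 65.2% in regions opened by BDNF early and KCl late, and 73.8% in regions opened by both at 1 h. In 6 members there were at least 2 sites. The site lay at a median of 56 bp from the middle of the peak, within 50 bp in 36 members, and the same median of 56 bp was found in all kept peaks with a site.

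Members with and without the AP-1 letters had similar median levels. The 79 with a site had median levels of 1.5, 1.17 and 1.10 at BDNF 1, 6 and 10 h, and the 132 without had 1.47, 1.05 and 0.99. At BDNF 6 h, 63 of 79 (79.7%) and 99 of 132 (75.0%) were gained, with median log2 fold changes of 1.18 and 1.04. The difference between them was not tested. Members in promoters were gained at 6 h in 13 of 17 cases, with a median log2 fold change of 0.95.

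Other motifs were searched on both strands of the same windows, and shares are given for regions outside promoters, first for the 194 members and then for the 26455 kept peaks. The E-box CAGATG, read by bHLH factors of neurons, was in 36.1% against 29.8%, and the E-box CAGCTG in 26.3% against 27.2%. The short NFI site TTGGCA was less frequent, at 19.6% against 32.8%, and the CTCF motif, searched by its name, at 1.03% against 4.69%. The NFI share was 19.8% in regions opened by both stimuli at 1 h and 22.2% in the transient set. In regions opened by BDNF early and KCl late it was 28.5%. Slightly more members held ETS CGGAAGT (2.58% against 0.937%), STAT TTCNNNGAA (12.4% against 10.4%), SOX AACAATG (8.76% against 6.59%) and EGR GCGNGGGCG (1.55% against 0.786%), on few regions each. With 3 to 24 members behind these last 4 shares, they are descriptions of small counts.

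The rest of the panel is given in the same order. The shares were 16% against 16.3% for homeobox TAATTA, 6.19% against 5.40% for POU ATGCAAAT, 7.22% against 8.22% for RFX GTTGCCA, and 13.4% against 16.8% for C/EBP TTGCNNAA. For TEAD GGAATG they were 17.5% against 17.4%, for RUNX TGTGGT 16.5% against 17.8%, for the short MAF site TGCTGAC 6.70% against 6.04%, and for KLF/SP GGGCGGG 5.67% against 4.74%. CRE TGACGTCA (0.515% against 0.416%), NBRE AAAGGTCA (1.03% against 0.662%), and the MEF2 and CArG box motifs, searched by name (0.515% against 1.24%, and 1.55% against 1.61%), were rare. RFX and NFI letters can overlap, as can those of EGR and KLF/SP.

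**Figure D3:**
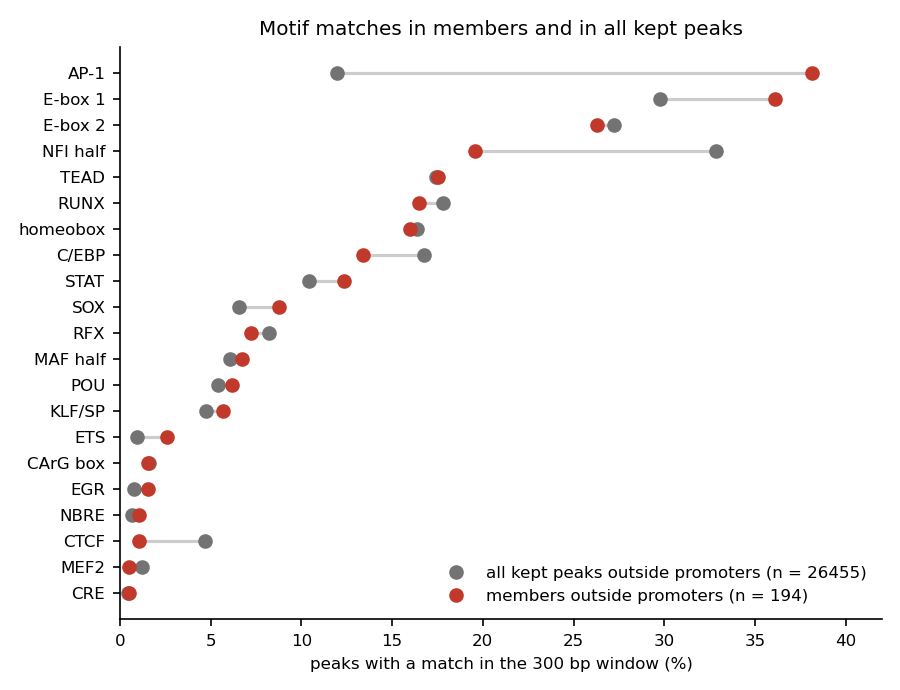
Share of regions outside promoters with a motif match in the 300 bp window (x axis, percent) for each motif (y axis), in red for the 194 members and in grey for the 26455 kept peaks, with E-box 1 for CAGATG and E-box 2 for CAGCTG. AP-1 shows the widest gap, at 38.1% against 12.0%, followed in the opposite direction by the short NFI site, at 19.6% against 32.8%.

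RNA of the nearest genes was not used by the rule. Of the 211 members, 151 had a protein-coding start within 100 kb and 60 did not, which gave 147 genes, since Wdr1, Agpat4, Add2 and Dagla were each nearest to 2 members. Of the 147, 117 had enough RNA to be tested and 30 did not. Tests were made with limma on log2(normalised count + 1) over 16209 genes, with Benjamini-Hochberg adjustment and a call at an adjusted p below 0.1, and each comparison with controls used the same 6 controls.

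With BDNF, 36, 35 and 31 of the 117 tested genes (30.8%, 29.9% and 26.5%) were higher at 1, 6 and 10 h, beside 21.3%, 22.1% and 21.1% of all genes. Among genes nearest to kept peaks the shares were 22.1%, 23.7% and 22.4%, and among those of the transient set 39.0%, 40.7% and 27.1%. No difference between these shares was tested. Fewer were lower, 21, 25 and 27, beside 19.0%, 21.1% and 19.5%. With KCl, 40, 43 and 40 were higher (34.2%, 36.8% and 34.2%), beside 26.5%, 33.4% and 29.0% of all genes. Lower were 24, 42 and 31, beside 28.2%, 33.1% and 28.2%. Compared directly, 37, 48 and 32 were higher with BDNF than with KCl at the same time, beside 24.6%, 29.6% and 23.1%, and 26, 37 and 33 were lower, beside 18.2%, 27.8% and 21.8%. In number the calls lay near those of all genes, and the median log2 fold change of the 117 was 0.00, 0.01 and 0.02 at the 3 BDNF times.

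Rises of at least 2-fold were counted after the values had been seen, and no difference from other genes was tested. By this count, 10, 7 and 5 genes were at least 2-fold higher with BDNF at 1, 6 and 10 h, beside 2.66%, 1.68% and 1.3% of all genes. With KCl there were 2, 8 and 8, beside 2.97%, 4.55% and 3.37%. The 5 genes at BDNF 10 h were Rasl11a, Dusp6, Serpinb2, Sh2d5 and Klf10, and the 2 at KCl 1 h were Dusp6 and Ifrd1. Falls of at least 2-fold, counted in the same way, numbered 1, 0 and 2 with BDNF, beside 1.34%, 1.47% and 1.38% of all genes. With KCl these falls numbered 3, 5 and 2, beside 5.54%, 8.42% and 4.44%.

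A lasting RNA rise, called at all 3 BDNF times, was found for 19 of the 117 genes, beside 9.19% of all genes, and a lasting fall for 7, beside 6.27%. Of the 19, 12 were also higher than with KCl at every time, 7 were higher with KCl at every time too, and 6 were called higher with KCl at no time. Other genes were brief or silent, with 14 higher at BDNF 1 h and at no later time and 26 called at no BDNF time. In all, 52 genes were higher and 43 lower at 1 time or more. Apart from the lasting rises and falls, no share over all genes was taken for these counts, so they only describe the 117 genes.

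**Figure D4:**
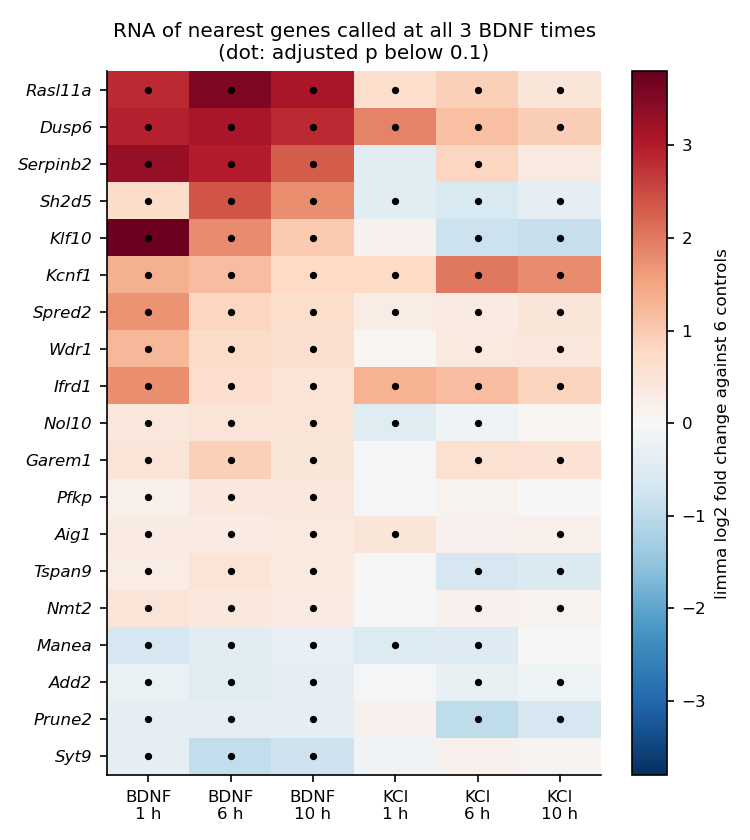
Limma log2 fold change of RNA against the 6 controls (colour, red for higher and blue for lower) for 19 of the 26 nearest genes called at all 3 BDNF times (rows, the 15 with the largest rise at 10 h and 4 with a fall) at 1, 6 and 10 h of BDNF and KCl (columns), with a dot for an adjusted p below 0.1. The 15 higher genes shown range from Rasl11a at 3.09 to Nmt2 at 0.32 at BDNF 10 h, and the 4 lower ones include Syt9 at -0.92 at BDNF 6 h.

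Rasl11a, a gene of the Ras-like small GTPases (chr5:146845071-146847726), had the highest lasting RNA rise. Peak 54 (chr5:146861652-146862006) lay 16.8 kb downstream of its start, with 10.2 and 13.2 CPM after 1 h of BDNF, 14.2 and 9.44 after 6 h, and 8.90 and 9 after 10 h, against 2.39 to 4.95 in controls (median 3.70). With KCl it had 5.07 and 0.962 CPM after 1 h, 3.09 and 3.22 after 6 h, and 5.69 and 0.622 after 10 h. The BDNF columns were above every control, and the KCl columns spread on both sides of them. Its edgeR log2 fold change at BDNF 6 h was 1.64 (SE 0.37, adjusted p 0.000598), a call lost without BDNF 6 h column A (1.33, adjusted p 0.113).

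The RNA of Rasl11a was 170 and 158 normalised counts after 1 h of BDNF, 303 and 242 after 6 h, and 210 and 185 after 10 h, against 14.5 to 27.4 in controls (median 25.2). With KCl it was 27.2 and 47.0, 40.3 and 44.0, and 36.7 and 26.1. The log2 fold changes with BDNF were 2.83, 3.55 and 3.09 (SE 0.23 each, limma adjusted p at most 2.12e-09), and the gene was higher than with KCl by 2.17, 2.66 and 2.63. With KCl it was also called higher, by 0.66, 0.89 and 0.46, but the call at 10 h was lost with edgeR, DESeq2, a pseudocount of 5, no filter, a replicate block or controls of the same time (adjusted p 0.1 to 0.214) and without KCl 10 h column A, control 10 h column A or control 6 h column B (0.156 to 0.584). The KCl call at 1 h was lost without KCl 1 h column B (0.28, limma adjusted p 0.464) and against the controls of 1 h alone (0.41, limma adjusted p 0.271).

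Dusp6 encodes the phosphatase that switches off ERK (chr10:99263231-99267489). Peak 23 (chr10:99242082-99242437), in an annotated intron 21 kb upstream of its start, had 14.4 and 17.3 CPM after 1 h of BDNF, 9.46 and 10.5 after 6 h, and 7.91 and 8.28 after 10 h, against 1.42 to 4.12 in controls (median 2.06) and 1.61 to 4.98 with KCl. The log2 fold change at 6 h was 1.93 (SE 0.38, edgeR adjusted p 3.76e-05). Dusp6 RNA was 1730 and 1631 after 1 h of BDNF, 1909 and 1899 after 6 h, and 1528 and 1638 after 10 h, against 201 to 288 in controls (median 211). With KCl it was 877 and 777 after 1 h, 459 and 515 after 6 h, and 479 and 381 after 10 h. The RNA rose with both stimuli, by 2.92, 3.10 and 2.83 with BDNF and 1.89, 1.13 and 0.94 with KCl (SE 0.11), while the peak showed no KCl level above 0.46.

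Serpinb2, the plasminogen activator inhibitor-2 gene (chr1:107511423-107535478), had a member in its promoter, peak 38 (chr1:107511142-107511597), whose middle lay 54 bp upstream of the start. The peak had 28.5 and 28.1 CPM after 1 h of BDNF, 30.3 and 19.7 after 6 h, and 19.8 and 28.8 after 10 h, against 6.65 to 13.6 in controls (median 9.21) and 4.49 to 12.7 with KCl. Its log2 fold change at 6 h was 1.38 (SE 0.25, edgeR adjusted p 4.31e-06). The RNA was 109 and 113 after 1 h of BDNF, 94.6 and 82.3 after 6 h, and 58.8 and 49.9 after 10 h, against 7.83 to 12.4 in controls (median 11.2), log2 fold changes of 3.31, 2.98 and 2.29. With KCl it was 7.41 and 7.48 at 1 h (-0.42, limma adjusted p 0.135), 20.6 and 17.4 at 6 h (0.82, limma adjusted p 0.00361) and 14.7 and 12.0 at 10 h (0.34, limma adjusted p 0.229). With BDNF the RNA was above all controls at each time, at a declining level.

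Klf10, a zinc finger transcription factor known as an early TGF-beta target (chr15:38291463-38300706), was the nearest protein-coding gene to peak 16 (chr15:38384249-38384975), 83.9 kb upstream, at the promoter of the non-coding Gm26863. Peak 16 had 53.6 and 58.0 CPM after 1 h of BDNF, 46.5 and 36.2 after 6 h, and 26.7 and 31.7 after 10 h, against 6.30 to 16.5 in controls (median 7.85) and 12.4 to 14.1 with KCl. Its KCl levels of 0.46, 0.48 and 0.50 were just under the limit of the rule, and its log2 fold change at BDNF 6 h was 2.25 (SE 0.20, edgeR adjusted p 7.96e-18). Klf10 RNA was 2880 and 2812 after 1 h of BDNF, 769 and 723 after 6 h, and 428 and 439 after 10 h, against 193 to 225 in controls (median 218). That is a log2 fold change of 3.72 at 1 h, 1.79 at 6 h and 1.01 at 10 h (SE 0.09), while the accessibility level of the peak was 2.62, 2.18 and 1.66. With KCl the RNA fell at 6 h by 0.83 and at 10 h by 0.89 on the log2 scale, and stood at 0.18 at 1 h (limma adjusted p 0.131).

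Spred2, an inhibitor of the Ras-ERK pathway (chr11:19924375-20024026), lay 88.8 kb from peak 75 (chr11:19835217-19835849), the member with the highest CPM among those named here. Peak 75 had 121 and 147 CPM after 1 h of BDNF, 99.1 and 91.8 after 6 h, and 102 and 84.3 after 10 h, against 27.2 to 53.5 in controls (median 43.5). With KCl it had 44.9 to 63.7 CPM. The log2 fold change at 6 h was 1.2 (SE 0.12, edgeR adjusted p 2.29e-15). Spred2 RNA was 2637 and 2758 after 1 h of BDNF, 1492 and 1414 after 6 h, and 1380 and 1228 after 10 h, against 765 to 866 in controls (median 819), and 900 to 1146 with KCl. It rose by 1.72, 0.82 and 0.67 with BDNF and by 0.29, 0.30 and 0.45 with KCl (SE 0.08), where the KCl 1 h call was lost without column A (0.13). Compared directly with KCl, Spred2 RNA was higher by 1.43, 0.52 and 0.22. The call at 10 h (limma adjusted p 0.0683) was lost with no filter (limma adjusted p 0.104). It was also lost without BDNF 10 h column A (0.13) or KCl 10 h column A (0.25) or B (0.18).

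**Figure D5:**
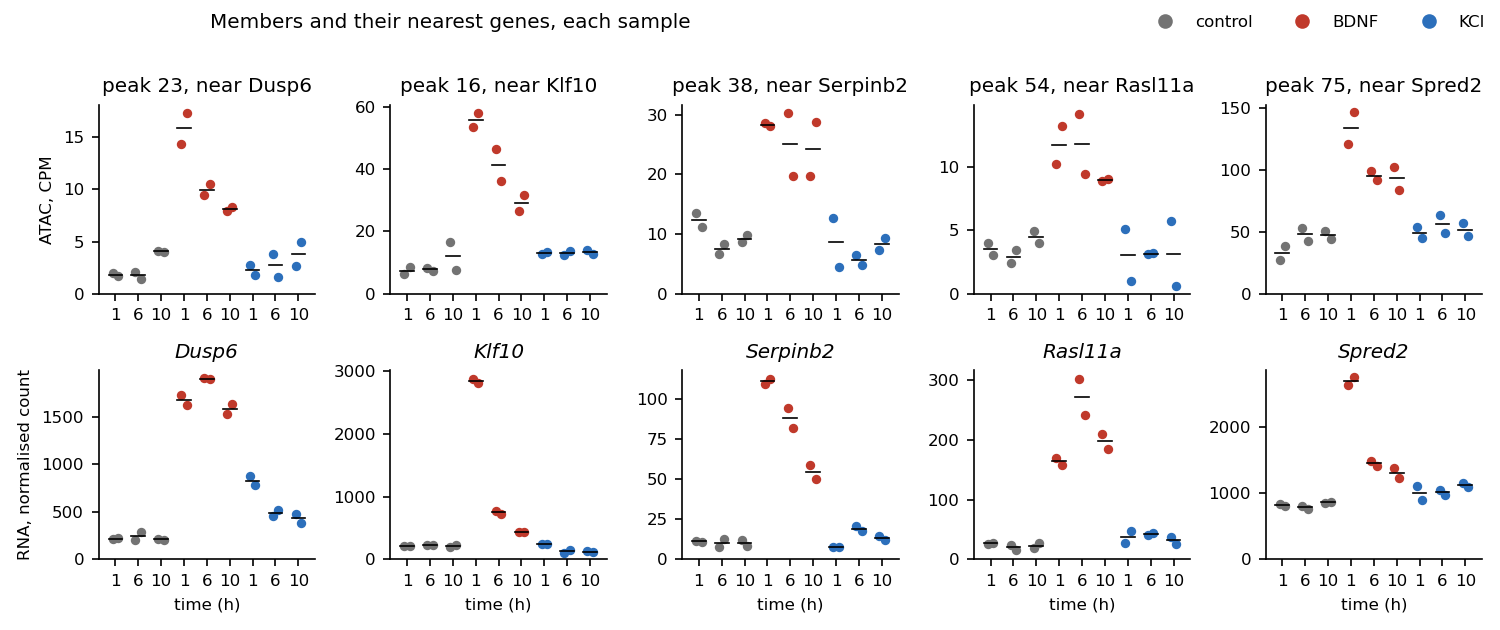
Accessibility of 5 members in CPM (top, linear axis from 0) and RNA of their nearest genes in normalised counts (bottom) for every sample at 1, 6 and 10 h (x axis), in grey for controls, red for BDNF and blue for KCl, with a line for the mean of the 2 samples. The BDNF columns of each peak lie above its controls at all 3 times, while RNA of Dusp6 also rose with KCl and that of Klf10 fell from 2880 and 2812 at BDNF 1 h to 428 and 439 at 10 h.

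Sh2d5, which encodes an SH2-domain adaptor (chr4:138250403-138261332), followed a later course. Peak 191 (chr4:138247205-138247668), 2.97 kb upstream, had 11.2 and 16.3 CPM after 1 h of BDNF, 10.0 and 9.27 after 6 h, and 8.40 and 7.92 after 10 h, against 2.65 to 7.42 in controls (median 4.27). Among the KCl columns, which ran from 3.8 to 8.71 CPM, 1 value at 10 h lay above all controls. The 6 h log2 fold change was 1.00 (SE 0.34, edgeR adjusted p 0.0507), a call lost under 5 alternatives, among them those without either BDNF 6 h column (0.95, adjusted p 0.304, and 1.05, adjusted p 0.223) and without control 1 h column A (0.89, adjusted p 0.112). Sh2d5 RNA was 230 and 199 after 1 h of BDNF, 737 and 648 after 6 h, and 488 and 418 after 10 h, against 108 to 152 in controls (median 135). The RNA was thus highest at 6 h (0.70, 2.39 and 1.78, SE 0.14, limma adjusted p at most 0.000384), and it was lower with KCl (-0.40, -0.59 and -0.36), calls of which the one at 1 h was lost without KCl column B (adjusted p 0.123) and the one at 10 h without KCl column A (adjusted p 0.172).

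Wdr1, which helps cofilin to take actin filaments apart (chr5:38526813-38563221), held 2 members in its introns. Peak 8 (chr5:38547511-38547760) had 15.4 and 14 CPM after 1 h of BDNF, 8.63 and 12.2 after 6 h, and 14.8 and 9.36 after 10 h, against 1.71 to 5.97 in controls (median 2.74), and was gained at 6 h (1.73, SE 0.37, edgeR adjusted p 0.000162). Peak 137 (chr5:38553987-38554311) had 19.4 and 16.9, 10.9 and 10.1, and 7.91 and 13.3 CPM, against 3.46 to 7.12 in controls (median 5.93). Its 6 h call (0.93, edgeR adjusted p 0.0528) was lost without control 10 h column B or control 6 h column A (adjusted p 0.109 and 0.124). The call was also lost against the 6 h controls alone (edgeR adjusted p 0.206) and with limma in place of edgeR (adjusted p 0.119). It was lost without BDNF 6 h column A or B too, where the log2 fold change was 0.89 and 0.98. Wdr1 RNA was 4642 and 4431 after 1 h of BDNF, 3128 and 3087 after 6 h, and 2792 and 2945 after 10 h, against 1797 to 1939 in controls (median 1904), a rise of 1.27, 0.72 and 0.61 (SE 0.05). With KCl it stood at 0.07 at 1 h (limma adjusted p 0.273) and rose by 0.38 at 6 h and 0.44 at 10 h. The direct comparison of BDNF with KCl at 10 h gave 0.17 (limma adjusted p 0.0497). That call was lost without BDNF 10 h column B (0.13) or KCl 10 h column A (0.18) or B (0.16).

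Several other named genes had lasting rises. Ifrd1, a transcriptional co-regulator, rose by 1.78, 0.63 and 0.53 with BDNF and also with KCl (1.33, 1.16 and 0.84). Kcnf1, a modulatory potassium channel subunit, rose by 1.35, 1.16 and 0.77 with BDNF, yet more with KCl at 6 h and 10 h (1.99 and 1.80), where the direct comparison gave -0.83 and -1.03 (limma adjusted p 0.000899 and 0.000206). Tspan9, a tetraspanin gene with peak 6 in an intron, rose by 0.28, 0.51 and 0.36 with BDNF and was at 0.03 (limma adjusted p 0.699), -0.65 and -0.54 with KCl, the last 2 called lower. Nmt2, an N-myristoyltransferase gene, Nol10, Garem1, Pfkp, a glycolytic phosphofructokinase gene, and Aig1 stood between 0.18 and 0.91 at the BDNF times. Calls of Pfkp at 1 h, Garem1 at 10 h and Aig1 at each BDNF time were lost without a single BDNF column (limma adjusted p 0.1 to 0.297), and that of Pfkp also without control 1 h column B, control 6 h column B or either control of 10 h (0.113 to 0.167). The Pfkp call at 1 h was also lost with edgeR, with DESeq2, with no filter and against the controls of 1 h alone (adjusted p 0.144 to 0.204), and the Aig1 call at 1 h against the latter (limma adjusted p 0.141).

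Some members lay by genes whose RNA fell. Among the genes lower at all 3 BDNF times were Syt9, a synaptotagmin of vesicle fusion (-0.38, -0.92 and -0.78), Manea, a Golgi mannosidase gene (-0.63, -0.41 and -0.30), Add2, encoding beta-adducin of the membrane skeleton (-0.24, -0.47 and -0.36), and Prune2 (-0.38, -0.34 and -0.39). Calls of Prune2 at each time, of Add2 at 1 h and of Manea at 6 h and 10 h were lost without a single BDNF column (adjusted p 0.113 to 0.424). Against the controls of the same time alone, the 1 h calls of Syt9 (-0.24), Prune2 and Add2 and the 10 h call of Prune2 were lost (limma adjusted p 0.11 to 0.196). Rgs7, a regulator of G protein signalling with peak 9 in an intron, stood at -0.26 at BDNF 1 h (limma adjusted p 0.219) and rose by 1.34 at 6 h and 0.87 at 10 h. Jun, 25.9 kb from peak 72, rose by 1.36 at BDNF 1 h and 0.20 at 6 h (limma adjusted p 0.0506, lost without BDNF column B at 0.435). Peak 72 had 18.6 and 23.4 CPM after 1 h of BDNF, 17 and 15.8 after 6 h, and 20.3 and 10.8 after 10 h, against 2.85 to 11.9 in controls (median 5.68), so that 1 column at 10 h overlapped the controls. Map2, the dendritic microtubule protein gene with peak 135 in an intron, stood at -0.04, 0.01 and 0.13 with BDNF and was called at no BDNF time.

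The wider pathway was read from lists rather than from the members. All 9 tested AP-1 and related bZIP genes were higher at BDNF 1 h, 4 at 6 h (Fos at 1.73, Junb at 2.02, Maff at 1.25 and Jun at 0.20) and 3 at 10 h, against 8, 6 and 7 with KCl. Their median log2 fold change went from 3.13 at BDNF 1 h to 0.20 at 6 h and 0.12 at 10 h, and with KCl from 2.14 to 1.58 and 1.24. Median changes over all genes tested were between -0.01 and 0.01. At BDNF 10 h, 6 of the 9 were thus not called.

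Feedback genes of the ERK pathway stayed high. Of 9, 9 were higher at BDNF 1 h, 8 at 6 h and 8 at 10 h, with median log2 fold changes of 1.72, 2.18 and 2.17, and Dusp1 was lower at 6 h (-0.24). With KCl 7, 8 and 8 were higher, with medians of 0.72, 1.13 and 1.01. All 4 EGR-related genes were higher at each BDNF time (medians 6.73, 3.36 and 3.01), against 3 at each KCl time (2.99, 1.49 and 0.84). Of this last list, Nab2, a corepressor of EGR proteins, was lower at KCl 1 h (-0.51) and not called at KCl 6 h (0.19) and 10 h (0.16).

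Neurotrophin signalling genes moved in both directions. Of 11 tested, 4, 6 and 5 were higher and 3, 2 and 3 lower at BDNF 1, 6 and 10 h, with medians of -0.06, 0.19 and 0.08. Ntrk2, the BDNF receptor gene, was lower at 6 h (-0.51) and 10 h (-0.57), and Ntf3, the neurotrophin-3 gene, fell most, by 0.98, 2.81 and 2.13. Of 16 other factors read with the motif panel, 7, 6 and 6 were higher and 2, 4 and 4 lower, with medians of 0.27, 0.23 and -0.02. Among these factors, Mef2c was lower (-0.83, -1.30 and -0.84) and Pou3f1 higher (1.17, 1.24 and 0.95) at BDNF 1, 6 and 10 h. Nfia and Nfib were lower at BDNF 6 h (-0.55 and -0.49) and 10 h (-0.52 and -0.33). With KCl, Nfia was lower at 6 h (-0.45) and 10 h (-0.65). Nfib was lower at KCl 10 h (-0.45) and not called at KCl 6 h (-0.10). A link between the RNA of a factor and the share of its motif was not tested. Astrocyte markers also moved with BDNF, with 5 of 5 lower at 6 h and 3 at 10 h (summed level 9942 to 13591 with BDNF against 10558 to 15187 in controls). Progenitor markers were lower in 3 of 5 cases at BDNF 6 h and 10 h (5904 to 7743 against 6561 to 9154). Of 5 excitatory neuron markers, 3 were lower and 2 higher at BDNF 1 h. At 6 h 1 was lower and 3 higher, and at 10 h 1 was lower and 2 higher. Their summed level was 3817 to 5980 at all BDNF times against 5193 to 5930 in controls. Markers of inhibitory neurons, 3 of 3, were higher at each BDNF time (6913 to 8756 against 4593 to 5971). Of 5 neuronal markers, 1 was higher at BDNF 1 h, 1 higher and 2 lower at 6 h, and 2 lower at 10 h. KCl moved some of these markers too. At KCl 6 h the astrocyte markers Gfap (-1.22), Aqp4 (-1.17), Aldh1l1 (-0.52) and Slc1a3 (-0.41) were lower, and Gja1 (-0.38) was not called. The inhibitory markers Gad1 (0.93), Gad2 (0.42) and Slc32a1 (1.05) were higher there. Summed levels with KCl were 5207 to 8672 for progenitor and 4885 to 7139 for excitatory markers. The part of these cell types in the RNA and accessibility values was not tested.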

How the data were processed

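ATAC-seq and RNA-seq were each made from 18 samples in 9 groups. The authors aligned ATAC reads to mm10 with Bowtie2, called peaks with MACS2 and counted them with DiffBind, and the deposited ATAC values are raw read counts per peak. RNA reads were aligned with TopHat2, and the deposited RNA values are a signal, counts divided by DESeq2 size factors. Trimmomatic is also named in the submitters' processing notes. Whole reads were recovered for 100% of RNA values within 0.01. Fold changes and p-values of the authors' own comparisons, where tables held them, were not used, and 0 columns were left without a group.

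Accessibility was tested with edgeR 4.0.16 (quasi-likelihood, LOESS offsets) in R 4.3.3 on 56383 peaks with a mean count of at least 10. The offsets came from a LOESS curve of log count against mean abundance in each library. The fit had 7 levels (6 stimulated groups and the pooled controls). RNA was tested with limma 3.58.1 on log2(normalised count + 1) over 16209 of 26709 genes with a mean of at least 10. The adjusted p limit was 0.1 (Benjamini-Hochberg), and other statistics used Python 3.11.15. Peaks were placed with GENCODE M21 (GRCm38), which named 26162 genes in the RNA table, and sequence was read from RefSeq GRCm38. The 2 columns of an ATAC group are called A and B in table order and carry no replicate number, and the RNA letters are not tied to the numbers in the labels. Replicates were never identical and differed by more than counting noise (chi-square per degree of freedom 2.06 to 2.58 for ATAC and 2.44 to 39.6 for RNA).

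Members and gene lists were chosen with earlier results of these data known. Named peaks were the 10 with the highest smaller level at BDNF 1 h and 10 h, the 3 on each side of each threshold, and those whose nearest gene was called at all 3 BDNF times (15 higher and 5 lower, by RNA fold change at 10 h), was nearest to at least 3 members (0 genes) or was on a list. Alternatives covered normalisation, tool, filter, pseudocount, window, distance, controls of the same time and each column left out. A gene that met this rule is not reported here.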

Additional observations from a re-analysis of the deposited data

Results flagged for a closer look

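Of 51 groups of 6 controls examined for the named peaks and genes, 5 held a sample far from the rest by Dixon's test at 95%, where chance marks about 1 in 20. Of these, 3 were ATAC values. Peak 4 near Pcmtd1 had 5.77 CPM in control 10 h column A (control median 2.5), peak 8 near Wdr1 had 5.97 CPM in control 1 h column A (median 2.74), and peak 16 near Klf10 had 16.5 CPM in control 10 h column A (median 7.85). The BDNF columns of all 3 peaks lay above these values. Dusp6 RNA was 288 in control 6 h column B (median 211), and Klf10 RNA was 193 in control 10 h column A (median 218).

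With KCl, 2 nearest genes had both samples above all controls at 1 time and below all controls at another. Serpinb2 RNA stood at -0.42 at 1 h (limma adjusted p 0.135) and 0.82 at 6 h on the log2 scale. Klf10 RNA stood at 0.18 at 1 h (limma adjusted p 0.131) and -0.83 at 6 h, so neither 1 h value was called. These differences between times were not tested.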

How the results depend on the processing

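Of 224 alternative values for the counts and medians above, 204 stayed within 1.5 times or within the spread. The number of members was 468 with a mean count of at least 10 and 181 to 223 without single columns. Members gained at BDNF 6 h numbered 102 to 166 without single columns, the lowest without BDNF 6 h column A, with median fold changes of 1.01 to 1.15, and the counts between controls stayed at 0. The AP-1 share was 29.9% in 200 bp and 46.4% over whole peaks. Nearest genes within 50 kb that were higher numbered 22, 20 and 17 with BDNF (1, 6 and 10 h), 25 and 26 with KCl (1 and 6 h), and 22, 29 and 20 for BDNF over KCl. With genes of any type they numbered 23 at BDNF 6 h and 21, 26 and 18 for BDNF over KCl, all with fewer genes tested. At an adjusted p below 0.01 they numbered 20 at BDNF 10 h, 23 at KCl 1 h and 20 for BDNF over KCl at 10 h. Without single columns the ranges were 28 to 35, 30 to 35 and 21 to 33 for BDNF, 21 to 38 (21 without KCl 1 h column A), 40 to 46 and 34 to 41 for KCl, and 28 to 35, 39 to 47 and 22 to 27 for BDNF over KCl. The RNA letters did not pair the samples (36 correlations between groups, -0.31 to 0.42, median 0.065), and the fit with a replicate block gave 37, 35 and 32 genes for BDNF, 40, 44 and 39 for KCl, and 39, 48 and 32 for BDNF over KCl. ATAC columns carry no number, so no paired ATAC fit was made. Of 2595 values of single peaks and genes, 97 lost their call, 14 gained one and 7 changed sign. The sign changes were Map2 at BDNF 6 h, at 0.01 in the report (-0.0074 with edgeR, -0.0023 with DESeq2, and -0.028 to 0.039 without single columns), and peak 69 near Nol10 (0.41) without BDNF 6 h columns (-0.20 to 0.79, the lowest without column B). Where no cause is given, the cause was not tested. Counts per peak were low (median mean count of members 30.7), which limits single peaks.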
